A study of Rattus norvegicus with 6 samples.

Results

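The 9 genes of the canonical Notch receptors and ligands were followed through lists of genes with a peak of H3K27me3, the trimethylation of lysine 27 on histone H3 that Polycomb complexes place on repressed chromatin. They are the receptors Notch1, Notch2, Notch3 and Notch4, the Delta-like ligands Dll1, Dll3 and Dll4, and the Jagged ligands Jag1 and Jag2. Members were found by gene symbol, with letter case ignored. Each of the 9 symbols matched 1 entry among the 22427 gene entries that the libraries name together. The lists come from primary cardiomyocytes of neonatal Sprague Dawley rats, cultured in medium with serum and treated for 24 h. Control cells received phosphate-buffered saline, and treated cells received 5 mM α-ketoglutarate (α-KG), which is made in the citric acid cycle and used by histone demethylases. Each treatment has 2 H3K27me3 libraries, numbered as in the labels: control 1 and 2, and α-KG 1 and 2. A further 2 samples are titled as input and labelled with IgG as antibody, and they were not analysed here. A list says only whether a gene had a peak in a library. It carries no read count, score or position, so depth is unknown. Absence from a list can mean no mark or a mark below detection. The labels do not say whether replicates were separate cultures, nor how pure the cultures were.

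Notch signalling passes between touching cells. A ligand on one cell binds a receptor on its neighbour, the receptor is cut by an ADAM protease and then by γ-secretase, and the freed intracellular part enters the nucleus, binds the DNA-binding protein RBPJ and switches on targets such as the HES and HEY repressors. In the heart the pathway is known for its part in endocardial, valve and trabecular development, and Polycomb is known to mark many developmental regulators in differentiated cells. Polycomb marks in mammals are also known to sit mostly at CpG-rich promoters.

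The promoters of 4 members are printed, and all 4 genes were listed alike. Those of Notch2, Notch4 and Jag1 show how differently CpG-rich member promoters are, and that of Dll1 shows matches to a short sequence. Sequences were taken from RefSeq on rat assembly GRCr8, whereas the submitters' processing notes name rn6 for the lists. RefSeq promoters matched 8 of the 9 members, and Dll4 was not matched. Each line gives the 250 bases before the annotated start, 5′ to 3′ on the gene's strand. For Notch2 (chr2:188299086-188299335, plus strand), Notch4 (chr20:4189073-4189322, minus strand) and Jag1 (chr3:144894884-144895133, minus strand), capitals mark CpG dinucleotides. For Dll1 (chr1:64993275-64993524, minus strand), capitals mark TGGGAA, the core of the sequence that RBPJ binds, read on either strand.
Notch2: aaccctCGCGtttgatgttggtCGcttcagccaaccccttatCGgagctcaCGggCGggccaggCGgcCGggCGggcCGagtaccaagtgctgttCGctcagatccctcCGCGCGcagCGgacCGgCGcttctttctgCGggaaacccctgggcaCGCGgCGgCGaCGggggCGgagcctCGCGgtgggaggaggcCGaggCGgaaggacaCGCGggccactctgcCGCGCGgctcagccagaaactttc
Notch4: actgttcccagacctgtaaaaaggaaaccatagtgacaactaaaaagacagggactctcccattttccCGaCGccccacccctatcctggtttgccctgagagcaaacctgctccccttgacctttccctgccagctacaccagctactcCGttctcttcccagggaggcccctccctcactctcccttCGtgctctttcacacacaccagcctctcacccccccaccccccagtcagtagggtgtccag
Jag1: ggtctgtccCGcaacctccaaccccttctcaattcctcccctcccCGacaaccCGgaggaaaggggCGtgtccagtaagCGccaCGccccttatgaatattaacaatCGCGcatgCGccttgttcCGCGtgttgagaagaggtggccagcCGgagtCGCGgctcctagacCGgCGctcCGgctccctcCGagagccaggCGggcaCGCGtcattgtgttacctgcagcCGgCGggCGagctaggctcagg
Dll1: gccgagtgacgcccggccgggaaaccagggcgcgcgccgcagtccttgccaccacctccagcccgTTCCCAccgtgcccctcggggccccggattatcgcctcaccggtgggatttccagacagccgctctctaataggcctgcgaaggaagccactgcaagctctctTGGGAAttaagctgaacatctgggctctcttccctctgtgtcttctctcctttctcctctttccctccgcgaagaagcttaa

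All 4 receptor genes were listed in every library. Notch1 (ENSRNOG00000019322), a receptor known from endocardium and arterial endothelium among other tissues, was listed in both control and both α-KG libraries. So were Notch2 (ENSRNOG00000018835), Notch3 (ENSRNOG00000004346), a receptor of vascular smooth muscle and pericytes, and Notch4 (ENSRNOG00000000442), an endothelial receptor. No receptor separated control from α-KG libraries, nor replicate 1 from replicate 2.

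The same held for the 5 ligand genes. Dll1 (ENSRNOG00000014667) and Dll4 (ENSRNOG00000014011), a ligand of arterial and sprouting endothelium, were listed in all 4 libraries. So were Jag1 (ENSRNOG00000007443), a ligand of outflow tract and smooth muscle development, and Jag2 (ENSRNOG00000013927). Dll3 (ENSRNOG00000019338), a divergent Delta known to act in the ligand-receiving cell during somite formation, was listed in all 4 as well. The 9 members thus gave 36 of 36 possible listings, with a mean of 9 per library in each group. The difference between α-KG and control was 0 members.

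A listing in all 4 libraries was common in these data, and the members' count is read against that. Of all entries, 62.8% were in all 4, and of the 17338 entries with a gene symbol, 63.1% were. By library, control 1 listed 76.9% of all entries, control 2 82.2%, α-KG 1 80.8% and α-KG 2 85.5%. A gene is called lost if it was listed in both controls but in neither α-KG library, and gained if the reverse. None of the 9 members was lost, where 3.22% of the 16005 entries in both controls were. None was gained, where 4.48% of the 16287 entries in both α-KG libraries were. At these rates a set of 9 would hold few lost or gained genes in any case. No test was made for the members, and 2 against 2 libraries cannot give an exact two-sided permutation p below 0.333 for any single gene. A list cannot show a change in peak height or width, so a quantitative change at a listed gene was not detectable here.

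**Figure D1:**
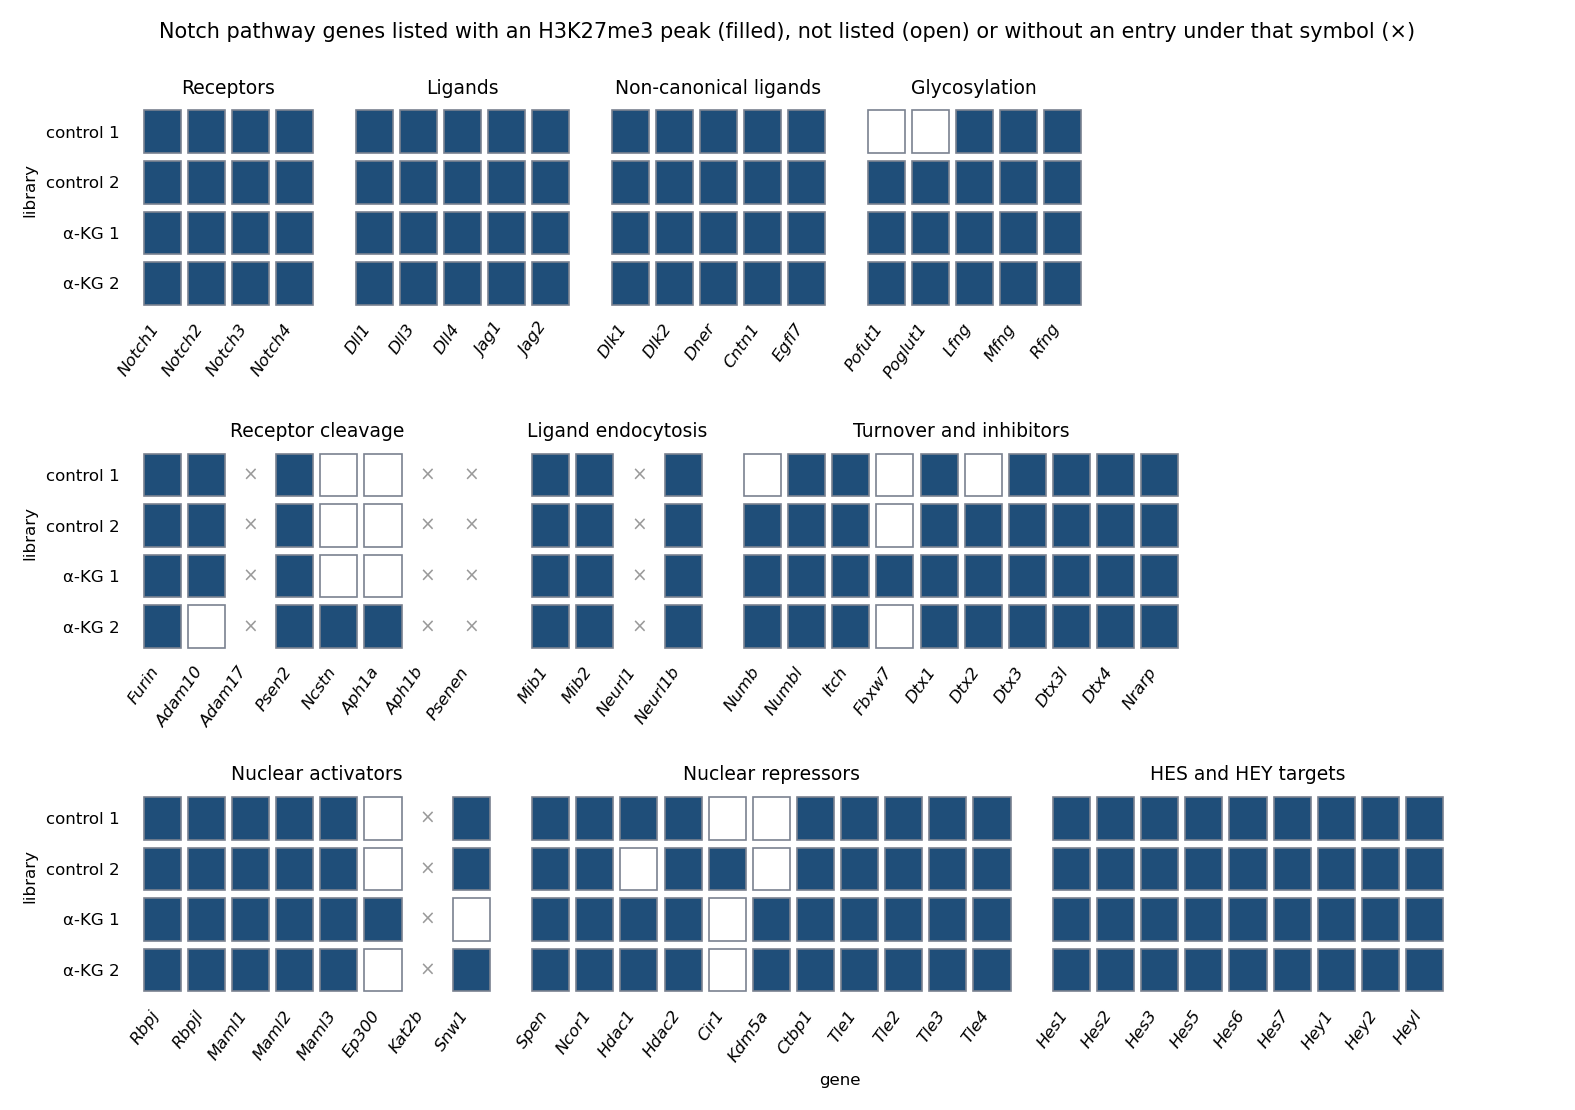
Each square is one gene (columns, grouped by role) in one H3K27me3 library (rows, the controls above the α-KG libraries). A filled square means listed with a peak, an open square not listed, and a cross no entry under that symbol; only genes reported here are drawn. The 9 receptor and ligand genes are filled in all 4 libraries, and Kdm5a is the 1 gene filled in both α-KG libraries and open in both controls, a pattern of 4.48% of all entries in both α-KG libraries.

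The deposited lists also name the protein domains of each gene, which the choice of members did not use. All 9 members carried the names Epidermal growth factor-like domain and EGF-like calcium-binding domain, the repeats through which ligand and receptor bind. The 5 ligands shared the Notch ligand N-terminal domain, which no other listed entry carried. The Delta/Serrate/lag-2 (DSL) domain, the receptor-binding module, was given for Dll1, Dll4, Jag1 and Jag2 but not for Dll3. Among the receptors, Notch4 lacked the NOD domain name that Notch1, Notch2 and Notch3 carried, while all 4 carried ankyrin repeats. The Notch domain was given for all 4 receptors and for 3 other entries, the proteases Pappa and Pappa2 and the phosphotransferase subunit Gnptab. Those 3 were also listed in all 4 libraries. These names describe the annotation that came with the lists, and Notch1 carried the family names of both Notch 1 and Notch 4.

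Genes that share the members' domains had lower shares. Of the 204 other entries with an Epidermal growth factor-like domain, 154 (75.5%) were in all 4 libraries. Control 1 listed 169 of the 204, control 2 177, α-KG 1 176 and α-KG 2 190. For the EGF-like calcium-binding domain the count was 90 of 110 (81.8%), and for ankyrin repeats 149 of 202 (73.8%). All of these shares lay above the 63.1% of entries with a symbol. The difference between the 9 members and these families was not tested, and 4 of the 204 genes also stand on the list of other pathway genes.

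**Figure D2:**
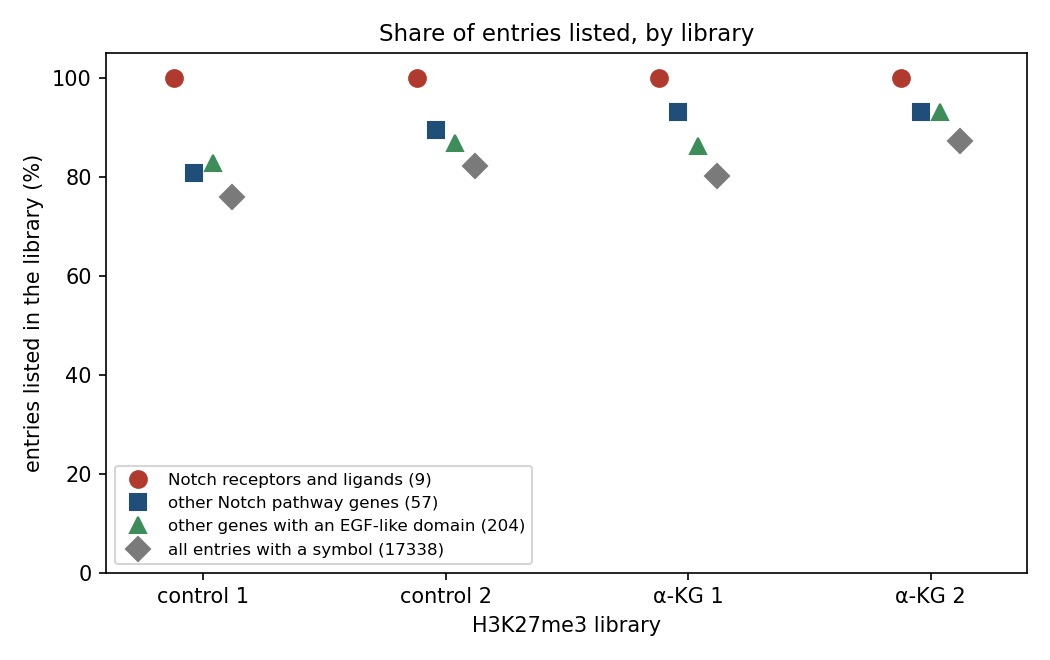
The percentage of entries listed (vertical axis) is shown for each H3K27me3 library (horizontal axis). Circles are the 9 receptors and ligands, squares the 57 other pathway genes, triangles the 204 other genes with an EGF-like domain, and diamonds all 17338 entries with a symbol. The circles stand at the top of the scale in every library, with all 9 listed, and the diamonds run from 75.8% in control 1 to 87.3% in α-KG 2.

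Pathway genes other than the receptors and ligands were described by role, from a list of 62 genes, of which 57 had an entry under their symbol. A gene that no library lists has no entry, so shares of entries leave such genes out. Of these 57, 43 (75.4%) were in all 4 libraries, 0 were lost and 1 was gained. The shares over all entries were 63.1% in all 4 (entries with a symbol), 3.22% lost and 4.48% gained. Control 1 listed 46 of the 57, control 2 51, α-KG 1 53 and α-KG 2 53. Both α-KG libraries thus stood above both controls for this list, by a mean of 4.5 genes or 7.89 percentage points, and control 1 stood lowest. Entries with a symbol were also listed more often under α-KG, by a mean of 4.82 percentage points, and whether the list differed from them was not tested. For all entries together control 1 was also lowest, but α-KG 1 lay below control 2.

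For targets, non-canonical ligands and ligand endocytosis, every entry under a current symbol was in all 4 libraries, as for the members. These sets are small, and 63.1% of entries with a symbol were in all 4. All 9 HES and HEY targets, transcriptional repressors that carry out much of the Notch response, were in all 4 libraries, among them Hes1, Hes2, Hes3 and Hes5. So were all 5 non-canonical ligands, including the neural adhesion gene Cntn1, the Delta-like inhibitors Dlk1 and Dlk2, and Dner. Of the genes for ligand endocytosis, the ubiquitin ligase genes Mib1, Mib2 and Neurl1b were in all 4. Neurl1 had no entry under its current symbol, and under the older name Neurl1a it was in all 4 too.

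Of the glycosylation genes, which modify the receptor, 3 of 5 entries (60.0%) were in all 4 libraries, near the 63.1% of entries with a symbol. The fringe enzymes Lfng, Mfng and Rfng were those 3. Pofut1 and Poglut1, which add the first fucose and glucose to the EGF repeats, were in control 2, α-KG 1 and α-KG 2 but not in control 1. Of the cleavage genes 6 had an entry, and 2 of the 6 (33.3%) were in all 4, the convertase Furin and the γ-secretase subunit Psen2. Adam10, the protease of the first cut on ligand binding, was absent from α-KG 2 alone. The γ-secretase subunits Ncstn and Aph1a were in α-KG 2 alone, and Adam17, Aph1b and Psenen had no entry in any library under a current or older symbol.

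Regulators of receptor turnover were in all 4 libraries for 7 of 10 entries (70.0%), beside 63.1% of entries with a symbol. The deltex ubiquitin ligase genes Dtx1, Dtx3, Dtx3l and Dtx4 were among the 7. Numb, which inhibits Notch in one daughter of a dividing cell, and Dtx2 were absent from control 1 alone, and Fbxw7, which marks the intracellular part for degradation, was in α-KG 1 alone. Among nuclear activators, Rbpj and the mastermind coactivator genes Maml1, Maml2 and Maml3 were in all 4, within 5 of 7 entries (71.4%). The acetyltransferase gene Ep300 was in α-KG 1 alone, and the cofactor gene Snw1 was absent from α-KG 1 alone. Kat2b, under its older name Pcaf, was absent from control 2 alone.

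Among nuclear repressors 9 of 12 were in all 4 libraries, including Ctbp1, Hdac2 and Ncor1. Hdac1 was absent from control 2 alone, and Cir1, a corepressor that binds RBPJ, was in control 2 alone. Kdm5a, a histone H3 lysine 4 demethylase that works with RBPJ at silent targets, was listed in each α-KG library and absent from each control. It was the 1 gained gene of the 50 pathway genes in both α-KG libraries (2.0%), where 4.48% of all such entries were gained.

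The count of gained pathway genes depended on single libraries. It was 2 without control 1 (Hdac1 and Kdm5a, beside 6.81% of all entries in both α-KG libraries) and 6 without control 2, where Dtx2, Numb, Pofut1 and Poglut1 were among those that joined Kdm5a. These genes were absent from control 1 alone, a pattern that 1101 of all entries (4.91%) also had. Without control 2, 11.2% of all entries in both α-KG libraries counted as gained, beside the 6 of 50 pathway genes. The count was 3 without α-KG 1 (Aph1a, Kdm5a and Ncstn) and 3 without α-KG 2 (Ep300, Fbxw7 and Kdm5a), where the shares of all entries were 11.9% and 6.53%. The count of lost pathway genes, 0 with all libraries, was 1 without control 1 (Cir1), 1 without α-KG 1 (Adam10), 1 without α-KG 2 (Snw1) and 0 without control 2. In the same order 5.56%, 8.55%, 6.72% and 5.24% of all entries that could be lost were. For the members both counts were 0 whichever library was left out, and all 9 stayed in every remaining library. Of all entries, the share in all remaining libraries was 67.7% (leaving out control 1), 64.5% (control 2), 65.3% (α-KG 1) or 66.6% (α-KG 2).

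The listing of the genes beside each member was examined next, since the assignment of peaks to genes is not known here and neighbours may share a peak. Gene order was taken from RefSeq on GRCr8, which can differ from rn6. Of the 18 protein-coding genes next to a member, 14 had an entry, and 9 of the 14 (64.3%) were in all 4 libraries. Within 5 genes on each side, 46 of 73 matched neighbours (63.0%) were. Both shares were close to the 63.1% of all entries with a symbol.

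Around the receptors the counts were small and varied, and differences between members were not tested. Notch1 lay between Sec16a and Egfl7, both in all 4 libraries, and Egfl7 encodes a secreted non-canonical Notch ligand that is itself on the pathway list. Notch2 lay between Sec22b and Adam30, also both in all 4. Notch3 lay between the olfactory receptor gene Olr1088, absent from α-KG 2, and the epoxide hydrolase gene Ephx3, listed in control 2 and α-KG 2 alone. Notch4 lay between Gpsm3, in all 4, and the complement gene C4b, in α-KG 2 alone. Within 5 genes on each side of Notch4, 2 of 7 matched neighbours were in all 4 libraries, beside 5 of 7 for Notch1, 7 of 10 for Notch2 and 5 of 10 for Notch3.

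Around the ligands, the nearest matched neighbours in all 4 libraries were Fam120b beside Dll1, Chac1 beside Dll4, Btbd3 beside Jag1 and Nudt14 beside Jag2. On the other side of Jag1, Slx4ip was in control 1 and α-KG 1 alone. Beside Dll3, Timm50, a mitochondrial import gene, was in control 2 and α-KG 1 alone. Ermard, Selenov, Dll4l1 and LOC103692726, the other nearest neighbours of Dll1, Dll3, Dll4 and Jag2, had no matching entry. For Dll4l1 the name alone is known here, and its place comes from GRCr8, not rn6. Whether any near-identical copy affected the listing of Dll4 was not tested. Within 5 genes on each side, 8 of 9 matched neighbours of Jag2 were in all 4 libraries, beside 6 of 8 for Dll1, 5 of 8 for Dll3, 5 of 7 for Jag1 and 3 of 7 for Dll4. Thus both nearest neighbours were in all 4 libraries at Notch1 and Notch2, and neither was at Notch3. At Notch4 and Jag1 the neighbour on one side was and that on the other was not. The only matched nearest neighbour was in all 4 at Dll1, Dll4 and Jag2, but not at Dll3.

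**Figure D3:**
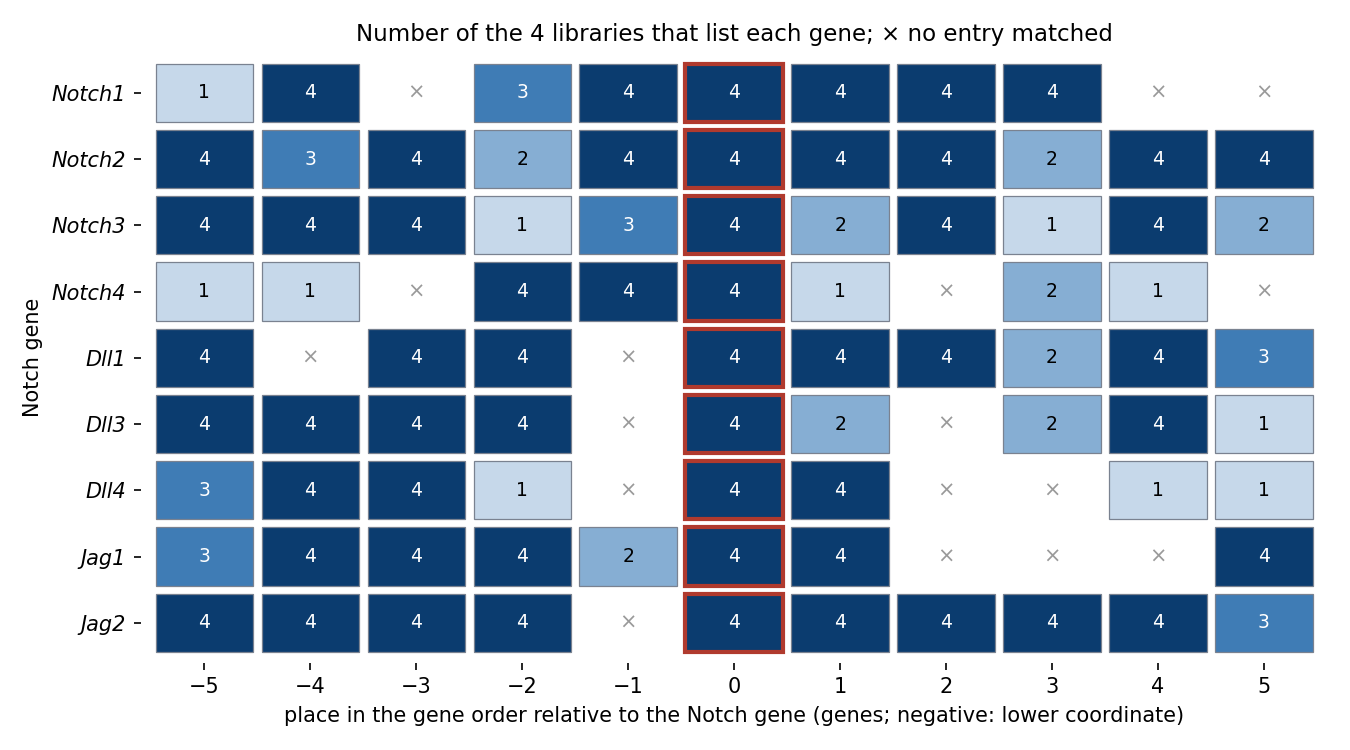
Rows are the 9 Notch genes, and columns are places in the RefSeq gene order from 5 genes before to 5 genes after each (0, red frame, is the Notch gene). Numbers and shading give how many of the 4 libraries list the gene, and a cross means no matching entry. The red frames all hold 4, and the neighbours range from 1 to 4.

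The promoters of the members differed widely in CpG content. The ratio of observed to expected CpG, which sets the CpG count against the C and G content, was taken over the 250 bases before each start. Among receptors it was 1.07 for Notch2 (33 CpG), 0.699 for Notch3 (19), 0.642 for Notch1 (18) and 0.243 for Notch4 (4). The sequences printed above show this contrast, with CpG along the whole Notch2 window and 4 CpG in that of Notch4.

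Among ligands the ratio was 0.934 for Jag1 (24 CpG), 0.793 for Dll1 (18) and 0.290 for Dll3 (5). Jag2 has 2 annotated starts, with ratios of 1.10 (48 CpG) and 0.741 (22). The window with 1.10 lies downstream of the other start, inside the gene as annotated from there, and may not act as a promoter. The median over all 21842 protein-coding promoters was 0.496, so Notch4 and Dll3 lay below it and the other 7 promoters above it. Those 21842 include promoters of genes without a matched entry in the lists. Promoters of genes listed in all 4 libraries had a median of 0.682, against 0.621, 0.539 and 0.538 for genes listed in 1, 2 and 3 libraries. Notch4 and Dll3 fell below the lower quartile of 0.391 of the genes listed in all 4, as some promoters of such genes do by definition. Both genes had the same listing as the other members. Promoters of a gene with several starts are not independent, and no test was made.

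**Figure D4:**
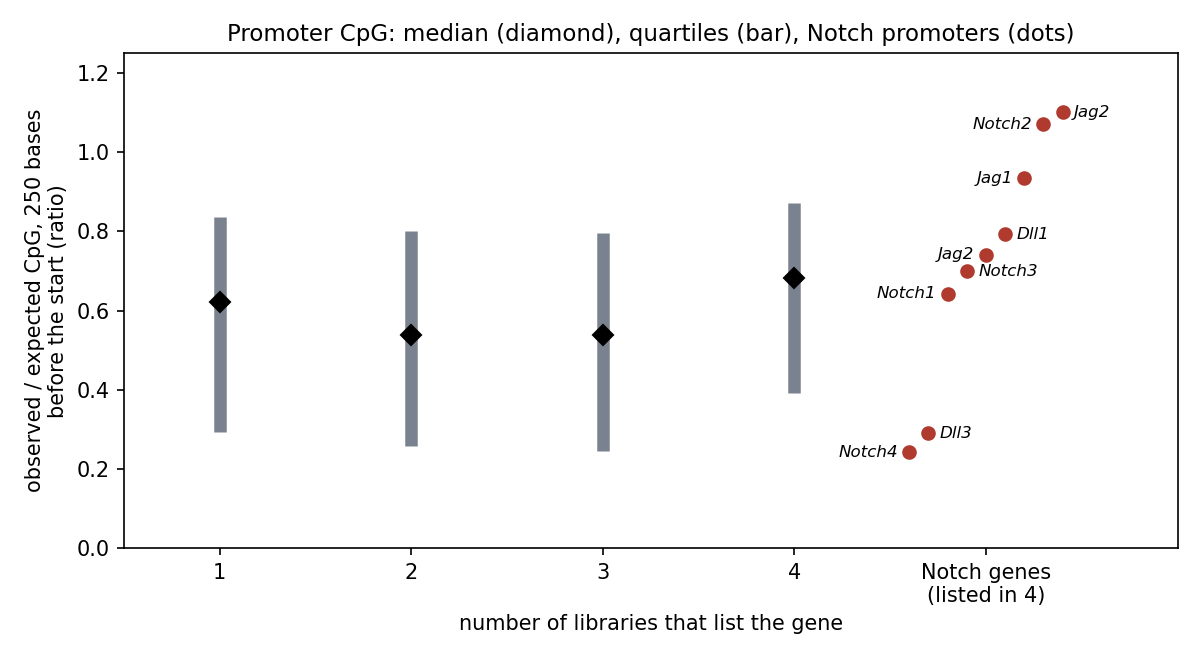
The ratio of observed to expected CpG in the 250 bases before the start (vertical axis) is shown by the number of libraries that list the gene (horizontal axis), with the median as a diamond and the quartiles as a bar. The red dots are the 9 promoters of 8 Notch genes, all listed in 4 libraries. They run from 0.243 for Notch4 to 1.10 for 1 of the 2 starts of Jag2. The window of that Jag2 start lies downstream of the other start.

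The same windows were searched on both strands for sequences of the pathway's own regulators. TGGGAA, the RBPJ core, was found in 2 of the 9 member promoters, those of Dll1 and Notch4, and in 21.8% of all promoters. The longer GTGGGAA, which contains that core, was found at Dll1 alone among the members, and in 5.43% of all promoters. In the printed Dll1 sequence the match on the gene's strand ends 77 bases before the start, and the other, on the opposite strand, lies 185 to 180 bases before it. CACGCG, a sequence that HES and HEY proteins bind, was found in the Notch2 and Jag1 promoters and in 9.17% of all promoters. It was also found in 1 of the 2 Jag2 windows. That window lies downstream of the other annotated Jag2 start, so it is inside the gene as annotated from that start. CACGTG, the other HES and HEY sequence searched, was in 0 of the 9, and in 6.16% of all promoters. Such matches describe letters in these windows, and the lists do not say where a peak lay.

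Markers of heart cell types were looked up because the members are known from several of them. Among cardiomyocyte markers 3 of 7 entries were in all 4 libraries (Tnnt2, Actn2 and Actc1). Ryr2, the calcium release channel gene, was lost, as were 3.22% of the 16005 entries in both controls. Tnni3 was in α-KG 1 alone, Myh7 in α-KG 2 alone and Nppa in control 2 alone, and Myh6 had no entry. The count was 4 of 6 for endothelial, 2 of 4 for smooth muscle and pericyte, 4 of 5 for fibroblast and 3 of 3 for immune markers. Of entries with a symbol, 63.1% were in all 4. A gene that no library lists has no entry, so these counts leave such genes out. Acta2, Tagln, Col1a2 and Cd68 had no entry. Adgre1, outside the count, was in all 4 under the older name Emr1. A peak list does not show which cells carried a mark, so the label of the culture could not be checked this way. The part of other cell types in the listing of the members was not tested.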

How the data were processed

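H3K27me3 was profiled by chromatin immunoprecipitation and sequencing. The deposited values are text lists, 1 per library, with 3 columns (Ensembl gene ID, symbol, protein domain names) and no header, per the files; the authors give no count, score or position. Per the submitters' processing notes, the tools were CASAVA, BWA and MACS2 and the build was rn6, with no roles stated. Not given in the sources used here are the peak threshold, the use of input and how peaks were assigned to genes, and depth is unknown. Groups and replicate numbers came from the labels.

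Lists were read with Python 3.11.15, pandas 2.3.3 and numpy 2.4.6, and figures drawn with matplotlib 3.10.9. Entries were counted by ID. Calls were tested on simulated data. No test across genes was run, since 2 against 2 libraries carry listings only. The members, gene lists and rules were chosen with earlier results of these data known. Named were all 9 members, their nearest RefSeq neighbours, each pathway gene not in all 4 libraries, and up to 4 per role, in alphabetical order, that were. Some genes that this rule names are not reported here, though the counts include them. Older symbols were matched only where they are no gene's current symbol. As alternatives, each library was left out in turn, and a replicate block, exact letter case, symbols counted once and older symbols were tried.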

Additional observations from a re-analysis of the deposited data

How the results depend on the processing

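The 9 members in all 4 libraries, the 0 lost or gained and the difference of 0 were unchanged without any 1 library, with exact letter case, with symbols counted once and with older symbols. Pathway genes in all libraries numbered 44 to 48 without 1 library, 42 with exact case and 44 with older symbols. Without 1 library, lost pathway genes numbered 0 to 1 and gained ones 2 to 6, against 0 and 1 with all, since fewer libraries then had to share a pattern. The replicate block, which compares α-KG with control within each number, gave 0 lost or gained members, a difference of 0, 0 lost pathway genes and 1 gained, the same by construction. The labels give the libraries a shared number and do not say whether it stands for a shared culture. Over 22427 entries, deviations of equal numbers correlated at 0.0478, which cannot settle this. In each group replicate 2 listed more of all entries than replicate 1 (82.2% against 76.9% for control, 85.5% against 80.8% for α-KG). Alternatives that need scores or positions were not run. Unknown depth limits what a missing listing can show.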
